A study of Mus musculus with 6 samples.

Results

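Histone deacetylases, acetyltransferases, methyltransferases and demethylases were followed in alveolar macrophages, phagocytes that live in the air spaces of the mouse lung. Members were the rows of the deposited expression table whose gene symbol starts with Hdac, Sirt, Kat, Kdm, Kmt, Setd, Prmt or Ehmt and a digit, together with Ezh1, Ezh2, Nsd1, Crebbp and Ep300. They were 69 of 10539 listed genes. Of these, 38 were writers, which add acetyl or methyl groups, and 31 were erasers, which remove them. All 6 RNA-seq libraries came from lung macrophages of C57BL/6 mice with overexpressed CEBPβ, a transcription factor of myeloid cells. The group CEBPβ has 3 libraries. The group CEBPβ-A has 3 libraries of such cells treated with A20-Ad, a virus (Ad, read here as adenovirus) named for A20, the NF-κB-restraining protein encoded by Tnfaip3. Which virus the CEBPβ cells received, how CEBPβ was overexpressed, and the age, sex and number of animals are not stated in the labels. The labels number the libraries as replicates and do not say that they came from separate animals or cultures, so p-values reflect the scatter among libraries alone, and that scatter could be technical.

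Histone tails carry acetyl groups that are added by lysine acetyltransferases and removed by zinc-dependent deacetylases and by NAD-dependent sirtuins. Methyl groups on lysine are added mostly by enzymes with a SET domain and removed by the flavin-dependent Kdm1 enzymes or by Jumonji demethylases. Methylation of lysine 4 of histone H3 (H3K4) marks promoters and enhancers in use, H3K36 methylation marks transcribed gene bodies, and H3K9 and H3K27 methylation accompany silencing. In macrophages such enzymes help to set which inflammatory genes respond to a stimulus.

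Values are FPKM, fragments scaled by gene length and library total, and the sequencing depth behind them is unknown. Listed FPKM summed to 278907 to 313215 per library. On the first principal component (44.3% of the variance) CEBPβ-A replicate 3 lay at 25.7 and the other libraries between −11.7 and −0.0954, so results are also given without it. Tnfaip3 was not higher in the libraries labelled CEBPβ-A (7.94, 15.5 and 7.32 FPKM, against 8.76, 17.7 and 19.2 in CEBPβ, limma adjusted p = 0.606), so directions here are between libraries as labelled. Cebpb overlapped between the groups (log2 fold change −0.065). All 12 macrophage markers were measured, from Lyz2 at 19554 to 29717 FPKM to Pparg at 37.0 to 42.5. Their sum overlapped between the groups. Pparg, Car4, Cd68 and Ear2 were higher in every CEBPβ-A library, as were 7.89% of all genes. Adgre1 and Itgax were lower in every CEBPβ-A library, as were 8.86% of all genes. The other macrophage markers overlapped. Of 6 neutrophil markers S100a8 and Csf3r were measured, and their sum was 210 to 261 FPKM in CEBPβ and 295 to 314 in CEBPβ-A, higher through S100a8. Of 9 epithelial markers 3 were measured (Scgb1a1, Krt8 and Ager), with a sum of 23.9 to 35.2 FPKM in CEBPβ and 28.1 to 61.7 in CEBPβ-A, highest in CEBPβ-A replicate 3. The other markers of both lists, and those of T and NK, B, dendritic, endothelial and fibroblast cells, were not among the listed genes. The rule for listing genes is not stated, so this gives no level for them. The part of other cells in the results was not tested. In bulk RNA, fewer cells of a type and less RNA per cell cannot be told apart.

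The members had a median level of 5.68 FPKM, against 6.52 over all listed genes. The most abundant was Kmt5a, which adds the first methyl group to lysine 20 of histone H4, at 40.6 to 51.8 FPKM over the 6 libraries. Next came Ehmt2, the H3K9 methyltransferase also called G9a, at 32.3 to 37.7 FPKM. The tubulin deacetylase Sirt2 followed at 16.7 to 18.9 FPKM, and then Kat5, the Tip60 acetyltransferase, at 13.2 to 15.7 FPKM. These ranges do not overlap, so the order of the leading members held in every library. Kat7, Hdac1, Kdm7a, Setd3 and Kdm5c also had means above 10 FPKM, from 10.1 to 11.4, and their ranges overlap. At the low end Sirt3, Hdac10, Kat6b, Kdm8, Sirt5 and Setd4 had means of 0.881 down to 0.541 FPKM, and these 6 were not tested. Among close relatives, Ezh1 (6.46 to 7.61 FPKM) lay above Ezh2 (1.10 to 1.84), the methyltransferase of Polycomb complex PRC2 that prevails in dividing cells. Ehmt2 lay above its partner Ehmt1 (3.31 to 4.47 FPKM), and Ep300 (6.20 to 11.6) above Crebbp (2.91 to 5.28), in each library.

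No writer or eraser passed the test between CEBPβ-A and CEBPβ. Of 63 members tested, 0 had an adjusted p under 0.05 (limma on log2(FPKM + 1), Benjamini-Hochberg adjustment over 9617 genes), where 0.0520% of all genes did, and the smallest adjusted p of a member was 0.588. At an unadjusted p under 0.05 there were 6 members (9.52%), against 8.18% of all genes. All 6 had a lower mean in CEBPβ-A, where 4.42% of all genes had both a lower mean and such a p. They were Kdm1b, Kdm5c, Ehmt1, Hdac6, Kat6a and Setd5. The log2 fold change was below 0 for 48 of 63 members (76.2%) against 53.4% of all genes. All 3 CEBPβ-A libraries lay below all 3 CEBPβ libraries for 13 members (20.6%) against 8.86% of all genes, and above them for 1 member, Kat5, against 7.89%. The median log2 fold change was −0.11 over 36 writers and −0.15 over 27 erasers, beside −0.013 over all genes. In the accounts of single members, FPKM of replicates 1, 2 and 3 of CEBPβ stand before the word against and those of CEBPβ-A after it, and a signed value with an SE is a log2 fold change of FPKM + 1.

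**Figure D1:**
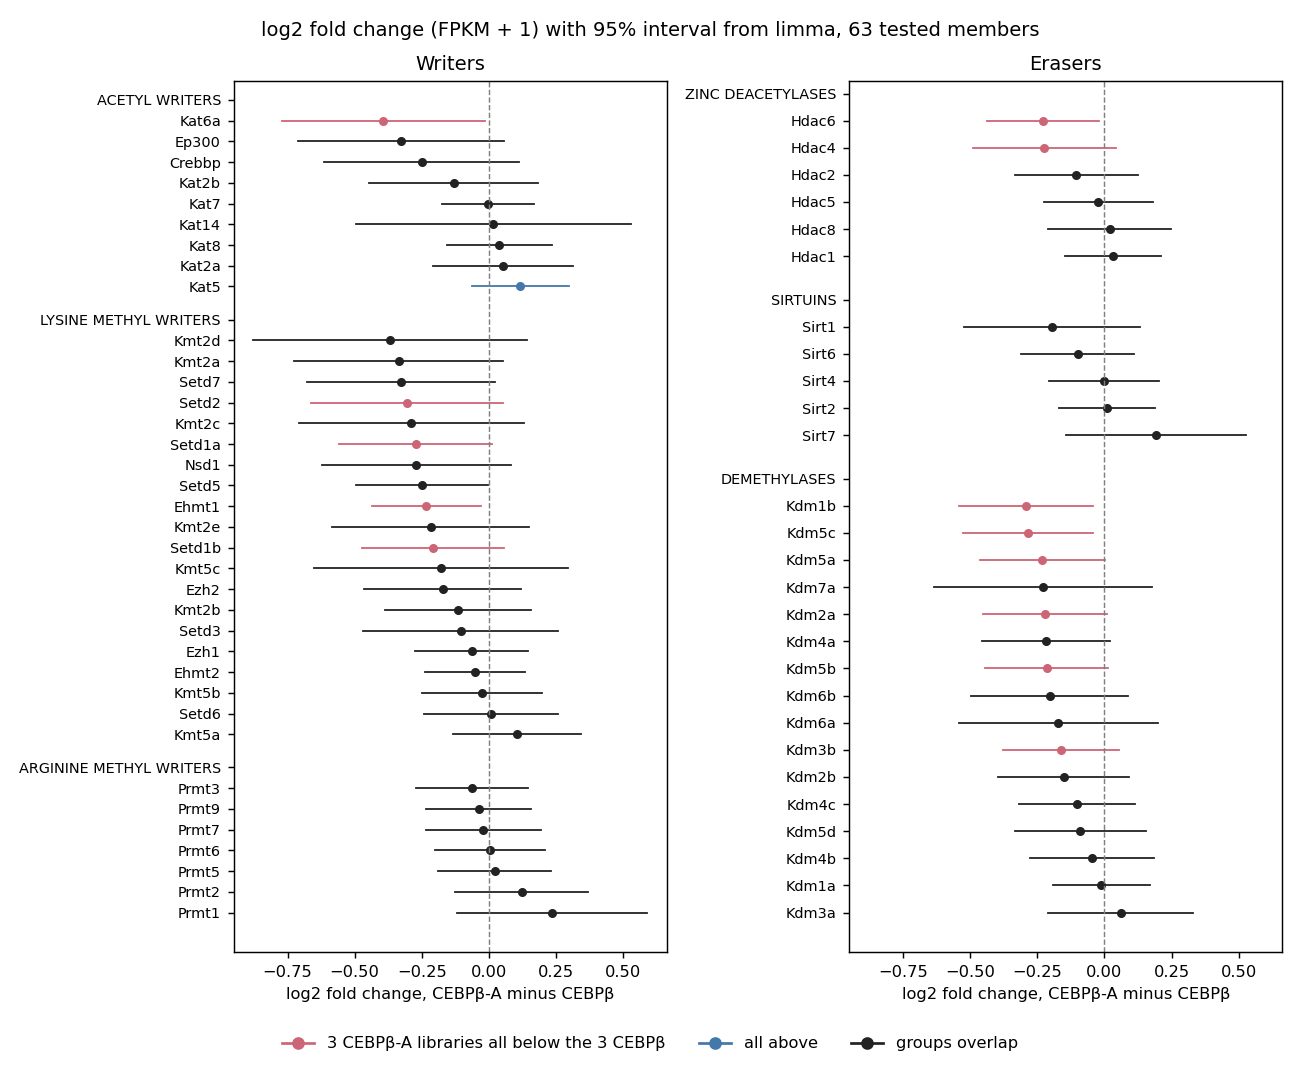
log2 fold changes of FPKM + 1 (CEBPβ-A minus CEBPβ, x axis) with 95% limma intervals for the 63 tested members, by enzyme class. The methyl writers on lysine and the demethylases lie mostly left of 0, with 18 of 20 and 15 of 16 negative, and the other classes lie around 0.

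Among 9 tested acetyl writers 5 were negative, with a median log2 fold change of −0.0025, and the lowest values were those of Kat6a and the coactivators Ep300 and Crebbp. Kat6a, a MYST-family acetyltransferase of histone H3 (ENSMUSG00000031540.13, GRCm38 chromosome 8, 22859535 to 22943259, plus strand), stood at 9.66, 9.72 and 9.08 FPKM in CEBPβ replicates 1, 2 and 3 and at 8.69, 7.58 and 5.11 in CEBPβ-A replicates 1, 2 and 3. The groups did not overlap, and CEBPβ-A replicate 3 was far below the rest. Its mean was 24.9% lower in CEBPβ-A (log2 fold change −0.39, SE 0.16, unadjusted p = 0.0436, limma adjusted p = 0.588). Ep300, the p300 coactivator that acetylates H3K27 at enhancers, stood at 11.6, 10.8 and 10.3 FPKM in CEBPβ and at 10.3, 9.45 and 6.20 in CEBPβ-A. Those groups overlapped at their edge, between CEBPβ-A replicate 1 and CEBPβ replicate 3. Its relative Crebbp, the CREB-binding protein, had 4.83, 5.28 and 4.38 FPKM against 4.04, 4.94 and 2.91. The log2 fold changes were −0.33 (SE 0.16) for Ep300 and −0.25 (SE 0.16) for Crebbp.

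Kat5 was the tested member with higher values in every CEBPβ-A library. It encodes Tip60, which acetylates histones H4 and H2A and the kinase ATM (ENSMUSG00000024926.9, GRCm38 chromosome 19, 5603017 to 5610094, minus strand). It had 14.2, 14.9 and 13.2 FPKM in CEBPβ and 14.9, 15.7 and 15.5 in CEBPβ-A. The separation was narrow and the difference did not pass (log2 fold change 0.12, SE 0.078, limma adjusted p = 0.610). Its exons overlap those of Rnaseh2c on the opposite strand, and whether counting used strand is not stated. Kat2a, the acetyltransferase of SAGA, had 7.11, 6.98 and 8.15 FPKM against 6.79, 8.85 and 7.61, with overlap. Kat8, which acetylates H4K16, and Kat7, Kat14 and Kat2b had log2 fold changes of 0.039, −0.0025, 0.016 and −0.13. For Kat7 the 95% interval ran from −0.17 to 0.17. The untested Kat6b stood at 0.871, 0.784 and 0.889 FPKM in CEBPβ and 0.731, 0.608 and 0.513 in CEBPβ-A, again without overlap.

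**Figure D2:**
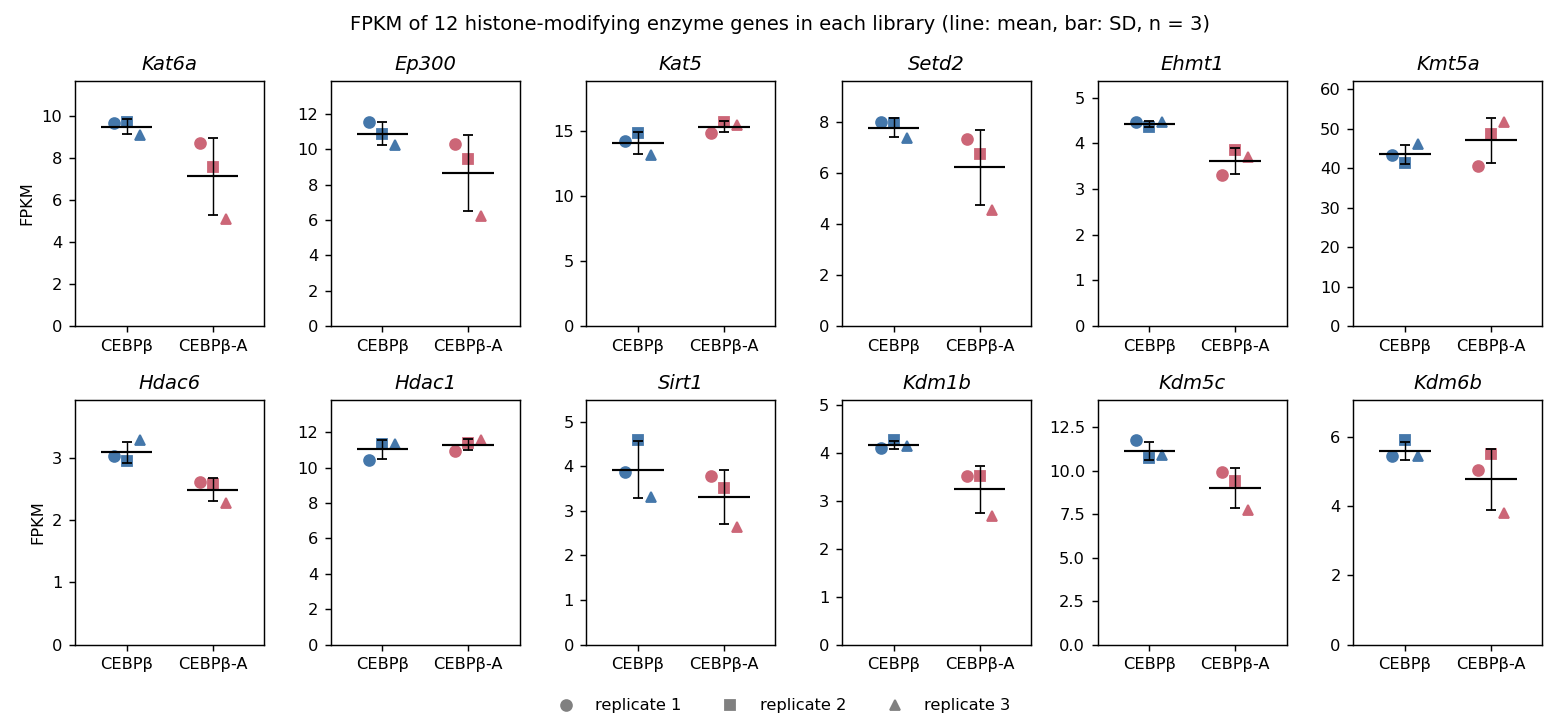
FPKM (y axis, from 0) of 12 members in each library, with the marker shape giving the replicate number, the line the mean and the bar the SD of 3 libraries. Kat6a, Ep300 and Setd2 show CEBPβ-A replicate 3 far below the others (5.11, 6.20 and 4.55 FPKM), and Kdm1b, Kdm5c, Ehmt1 and Hdac6 show all 3 CEBPβ-A libraries below CEBPβ.

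Methyl writers on lysine had a median log2 fold change of −0.21 over 20 tested members, with 18 negative. It was −0.11 without CEBPβ-A replicate 3 and −0.061 with the trend over transcript length removed from each library. The log2 fold change was below 0 for all 7 writers of H3K4, as for 53.4% of all genes. With the length trend removed it was below 0 for 6 of 7 (median −0.065), against 47.3% of all genes. Kmt2d, which with Kmt2c places single methyl groups at enhancers, stood at 11.6, 9.63 and 9.34 FPKM in CEBPβ and 10.5, 8.31 and 5.05 in CEBPβ-A. The groups overlapped through CEBPβ-A replicate 1, and replicate 3 was lowest (−0.37, SE 0.22). Kmt2c had 4.56, 4.74 and 3.45 FPKM against 4.36, 3.31 and 2.38 (−0.29, SE 0.18). Kmt2a, the MLL1 methyltransferase of promoters, had 5.82, 5.10 and 4.57 FPKM against 4.92, 4.10 and 2.81 (−0.34, SE 0.17), and its relative Kmt2b had a log2 fold change of −0.12, all with overlap. The catalytic subunits of the SET1 complexes were separate between groups, but overlapped with the length trend removed. Setd1a had 9.51, 8.41 and 9.14 FPKM against 8.05, 8.06 and 5.95, and Setd1b 7.23, 6.61 and 7.13 against 6.41, 6.52 and 4.93. Exons of Setd1a overlap those of another gene on each strand. Setd7, which adds single methyl groups to H3K4 and to other proteins, had 8.89, 9.59 and 7.83 FPKM against 7.93, 7.47 and 5.19, with slight overlap.

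Ehmt1, called GLP, was lower in each CEBPβ-A library, and there replicate 3 was not the lowest. It pairs with Ehmt2 to methylate H3K9 (ENSMUSG00000036893.17, GRCm38 chromosome 2, 24789928 to 24919614, minus strand). Its CEBPβ libraries had 4.46, 4.35 and 4.47 FPKM and its CEBPβ-A libraries 3.31, 3.87 and 3.70. The mean was 18.2% lower (log2 fold change −0.23, SE 0.088, unadjusted p = 0.0297, limma adjusted p = 0.588). Without CEBPβ-A replicate 3 it was the one member with an unadjusted limma p under 0.05, at 0.0351 and a log2 fold change of −0.25, where 5.34% of all genes were. Ehmt2 had 32.3, 33.0 and 37.7 FPKM against 32.9, 32.8 and 33.3, and the 95% interval of its log2 fold change ran from −0.24 to 0.13. Setd5, a SET-domain protein of disputed catalytic activity, had 6.42, 6.56 and 5.77 FPKM against 4.93, 5.86 and 4.57, with overlap (−0.25, SE 0.11, unadjusted p = 0.0487, limma adjusted p = 0.588).

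For H3K36, Setd2 places the third methyl group and Nsd1 the earlier ones. Setd2 had 8.02, 7.98 and 7.38 FPKM in CEBPβ and 7.37, 6.78 and 4.55 in CEBPβ-A (−0.30, SE 0.15). The groups were barely separate, and CEBPβ-A replicate 3 was far lower than the rest. Nsd1 had 9.01, 8.48 and 7.53 FPKM against 8.08, 7.25 and 5.14, with overlap (−0.27, SE 0.15). The H3K27 writers overlapped between groups. Ezh2 had 1.84, 1.34 and 1.77 FPKM against 1.29, 1.68 and 1.10 (−0.17, SE 0.13), and Ezh1 had 7.57, 7.61 and 6.68 against 7.03, 7.26 and 6.46 (−0.065, SE 0.090). Of the H4K20 writers, Kmt5a had 43.3, 41.2 and 46.1 FPKM against 40.6, 48.8 and 51.8 (0.10, SE 0.10), Kmt5b had a log2 fold change of −0.025 and Kmt5c −0.18. Kmt2e, a family member without clear enzymatic activity, had −0.22, Setd3, which methylates actin, −0.11, and Setd6, which methylates the NF-κB subunit RelA, 0.0073. The untested Setd4 had 0.363 to 0.692 FPKM, with overlap.

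Arginine methyl writers had a median of 0.0039 over 7 members, with 3 negative, and the groups overlapped for each. Prmt1, the main source of asymmetric dimethylarginine, had 6.65, 8.28 and 8.12 FPKM in CEBPβ and 7.14, 10.2 and 10.6 in CEBPβ-A. Replicates 2 and 3 of CEBPβ-A were above all CEBPβ libraries and replicate 1 was not. Its log2 fold change of 0.24 was the highest of the tested members (SE 0.15, limma adjusted p = 0.609). Prmt2 had 3.16, 3.77 and 3.79 FPKM against 3.52, 4.05 and 4.35, and Prmt3, which methylates a ribosomal protein, 3.29, 2.89 and 3.41 against 2.96, 3.04 and 3.03. Prmt5, the main source of symmetric dimethylarginine, had 4.17, 4.98 and 4.49 FPKM against 4.71, 4.67 and 4.47, with a 95% interval of its log2 fold change from −0.19 to 0.23. Prmt6, Prmt7 and Prmt9 had 0.0039, −0.021 and −0.038.

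Of 6 tested zinc deacetylases, Hdac6 and Hdac4 were lower in all 3 CEBPβ-A libraries (33.3%, against 8.86% of all genes). With the length trend removed Hdac6 alone was (16.7%, against 6.17% of all genes), and Hdac4 overlapped. Hdac6, a cytoplasmic deacetylase of tubulin and of the chaperone HSP90 (ENSMUSG00000031161.15, GRCm38 chromosome X, 7930120 to 7947889, minus strand), had 3.03, 2.96 and 3.29 FPKM in CEBPβ and 2.62, 2.58 and 2.28 in CEBPβ-A. The mean was 19.4% lower (log2 fold change −0.23, SE 0.090, unadjusted p = 0.0351, limma adjusted p = 0.588). Hdac4, a class IIa enzyme that shuttles between nucleus and cytoplasm, had 4.64, 4.78 and 4.89 FPKM against 4.14, 4.53 and 3.24 (−0.22, SE 0.11). Hdac1 and Hdac2, the catalytic pair of the SIN3, NuRD and CoREST complexes, overlapped between groups. Hdac1 had 10.4, 11.3 and 11.3 FPKM against 10.9, 11.4 and 11.5, with a 95% interval of its log2 fold change from −0.15 to 0.21. Hdac2 had 6.32, 7.39 and 7.95 FPKM against 6.38, 6.72 and 6.74 (−0.10, SE 0.10). Hdac5, another class IIa enzyme, and the class I enzyme Hdac8 had log2 fold changes of −0.022 and 0.019. The untested Hdac10, a polyamine deacetylase, had 0.560 to 0.845 FPKM, with overlap.

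Sirtuins had a median of −0.00047 over 5 tested members, and the groups overlapped for each. Sirt1, a nuclear deacetylase of histones, p53 and RelA, had 3.88, 4.59 and 3.32 FPKM in CEBPβ and 3.78, 3.51 and 2.63 in CEBPβ-A (log2 fold change −0.20, SE 0.14, limma adjusted p = 0.630). Sirt7, a nucleolar deacetylase of H3K18, had 6.86, 8.31 and 7.65 FPKM against 7.08, 10.7 and 8.96 (0.19, SE 0.14). Its exons overlap those of Mafg on the same strand, so reads of the pair may be split. Sirt6, which acts on H3K9 at NF-κB target genes and telomeres, had 3.39, 2.93 and 3.03 FPKM against 2.94, 2.92 and 2.65 (−0.10, SE 0.091). Sirt2 had 18.1, 17.4 and 17.3 FPKM against 17.6, 16.7 and 18.9, with a 95% interval from −0.17 to 0.19. The mitochondrial members Sirt3, Sirt4 and Sirt5 were low, at 0.821 to 0.996, 2.24 to 2.62 and 0.443 to 0.722 FPKM.

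Demethylases had a median of −0.19 over 16 tested members, with 15 negative. The median was −0.082 without CEBPβ-A replicate 3 and −0.032 with the length trend removed. Of the 16, 6 were lower in every CEBPβ-A library (37.5%, against 8.86% of all genes), and 2 were with the length trend removed (12.5%, against 6.17%). Kdm1b, the flavin-dependent H3K4 demethylase LSD2 (ENSMUSG00000038080.17, GRCm38 chromosome 13, 47043499 to 47085279, plus strand), had the lowest unadjusted p of the members. It stood at 4.10, 4.26 and 4.14 FPKM in CEBPβ and 3.52, 3.52 and 2.67 in CEBPβ-A. The CEBPβ libraries lay close together and above all of CEBPβ-A, whose mean was 22.3% lower (log2 fold change −0.29, SE 0.11, unadjusted p = 0.0273, limma adjusted p = 0.588). Its exons overlap those of Dek on the opposite strand. Its relative Kdm1a, the LSD1 subunit of CoREST, had 7.58, 7.64 and 7.09 FPKM against 7.23, 7.39 and 7.48, with a 95% interval of its log2 fold change from −0.19 to 0.17. Kdm5c, an X-linked Jumonji demethylase of H3K4 (ENSMUSG00000025332.14, GRCm38 chromosome X, 152233020 to 152274535, plus strand), had 11.7, 10.7 and 10.9 FPKM against 9.90, 9.40 and 7.71. Its groups were separate, with a mean 19.1% lower in CEBPβ-A (log2 fold change −0.28, SE 0.10, unadjusted p = 0.0275, limma adjusted p = 0.588).

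The H3K4 demethylases Kdm5a (5.75, 6.12 and 5.11 against 5.09, 4.65 and 4.28 FPKM) and Kdm5b (1.44, 1.26 and 1.68 against 1.15, 1.21 and 1.00 FPKM) were also separate, with log2 fold changes of −0.23 (SE 0.10) and −0.22 (SE 0.10). The Y-linked Kdm5d overlapped (1.52 to 2.04 FPKM, log2 fold change −0.091). The H3K36 demethylase Kdm2a had 7.27, 6.89 and 7.40 FPKM against 6.30, 6.58 and 5.26 without overlap, and Kdm2b had a log2 fold change of −0.15 with overlap. The H3K27 demethylases overlapped. Kdm6b, known as JMJD3 and induced by inflammatory stimuli in macrophages, had 5.44, 5.89 and 5.45 FPKM against 5.03, 5.50 and 3.79 (−0.20, SE 0.13, limma adjusted p = 0.602). Kdm6a, or UTX, had 3.78, 4.06 and 2.57 FPKM against 3.09, 3.36 and 2.39 (−0.17, SE 0.16). Kdm7a, which acts on H3K9 and H3K27 and had the highest mean of the demethylases, had 12.9, 13.9 and 9.52 FPKM against 11.2, 11.5 and 7.86. Replicate 3 was the lowest of its group in both groups for Kdm6a and Kdm7a. Exons of Kdm6b, Kdm5a and Kdm7a overlap a gene on the opposite strand (Kdm6bos, Ccdc77 and 4930599N23Rik).

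The H3K9 demethylases Kdm3b, Kdm4a, Kdm4b and Kdm4c had log2 fold changes of −0.16, −0.22, −0.047 and −0.10, and the groups were separate for Kdm3b. Kdm3a, which also acts on H3K9, was the one tested demethylase above 0 (0.061, SE 0.12). The untested Kdm8, a Jumonji protein with hydroxylase activity, had 0.566, 0.311 and 0.434 FPKM in CEBPβ and 0.775, 0.653 and 0.662 in CEBPβ-A. All its CEBPβ-A libraries were above CEBPβ and all were under 1 FPKM. With no filter on low values its log2 fold change was 0.24 (unadjusted p = 0.0336, limma adjusted p = 0.595).

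The bases before the start of Kdm1b, Kdm5c, Ehmt1 and Hdac6 are shown because these 4 genes had the smallest unadjusted p among the members. RefSeq start regions of GRCm38.p6 matched 57 of 69 members. The 250 bases before each RefSeq start are given 5′ to 3′ on the gene's strand, with CpG dinucleotides in capitals. They are chr13:47043249-47043498 (plus), chrX:152232977-152233226 (plus), chr2:24919610-24919859 (minus) and chrX:7947890-7948139 (minus). RefSeq and the expression table place the starts of Kdm5c and Ehmt1 differently, so 207 of the 250 bases of Kdm5c and 5 of those of Ehmt1 lie inside the gene as listed there, and none of those of Kdm1b and Hdac6 do.
Kdm1b: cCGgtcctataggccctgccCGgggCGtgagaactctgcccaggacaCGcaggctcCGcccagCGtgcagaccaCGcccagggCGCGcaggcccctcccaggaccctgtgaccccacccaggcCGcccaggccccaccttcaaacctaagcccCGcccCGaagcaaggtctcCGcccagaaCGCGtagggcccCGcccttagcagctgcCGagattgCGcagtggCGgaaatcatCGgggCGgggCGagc
Kdm5c: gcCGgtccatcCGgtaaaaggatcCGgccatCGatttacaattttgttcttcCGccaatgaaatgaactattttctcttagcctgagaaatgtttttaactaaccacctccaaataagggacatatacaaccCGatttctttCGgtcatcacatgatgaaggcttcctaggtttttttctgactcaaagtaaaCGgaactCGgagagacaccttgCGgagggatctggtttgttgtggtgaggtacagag
Ehmt1: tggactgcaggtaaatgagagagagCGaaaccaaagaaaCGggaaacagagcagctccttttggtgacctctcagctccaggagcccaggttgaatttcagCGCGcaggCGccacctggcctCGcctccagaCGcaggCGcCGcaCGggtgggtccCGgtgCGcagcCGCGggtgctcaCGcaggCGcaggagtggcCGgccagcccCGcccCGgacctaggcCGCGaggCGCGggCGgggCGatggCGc
Hdac6: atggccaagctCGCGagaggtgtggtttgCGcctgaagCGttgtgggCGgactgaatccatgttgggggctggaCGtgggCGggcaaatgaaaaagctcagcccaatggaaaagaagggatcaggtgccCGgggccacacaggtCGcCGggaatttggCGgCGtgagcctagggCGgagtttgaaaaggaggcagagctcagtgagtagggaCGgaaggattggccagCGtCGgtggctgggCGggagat
They hold 22, 10, 26 and 17 CpG. Over windows of 300 bases (250 before and 50 after a start), the median was 23 CpG in 74 windows of members. It was 7 in all 32851 RefSeq windows, which were not limited to the genes listed here. The members are all listed genes, so the sets compared are unlike. The GC-box letters GGGCGG, on either strand, occurred in 64.9% of member windows and 35.7% of all windows, and in the printed bases of Kdm1b, Ehmt1 and Hdac6. The ETS letters CCGGAAG, on either strand, occurred in 16.2% and 8.86%. The C/EBP-type letters TTNNGCAA, on either strand, occurred in 6 of 74 member windows (8.11%), of Kat5, Kat7, Kat8, Kdm4c, Prmt3 and Sirt7, and in 10.8% of all windows. The CRE letters TGACGTCA (Prmt9) and the NRF1 motif (Sirt6), on either strand, each occurred in 1 member window, or 1.35%, against 1.79% and 0.971% of all windows. A match describes the letters only.

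Summed levels of writers and of erasers were both lower in CEBPβ-A, and their ratio overlapped between groups. These sums and those by mark use FPKM as deposited, with no length correction and no matched sum of other genes. Over 38 writers the sum was 316, 305 and 309 FPKM in CEBPβ and 289, 304 and 279 in CEBPβ-A. Over 31 erasers it was 170, 169 and 165 FPKM against 157, 162 and 144. The groups were separate for both, by a narrow margin for writers. The ratio of writers to erasers was 1.86, 1.81 and 1.87 in CEBPβ and 1.83, 1.88 and 1.93 in CEBPβ-A. For H3K4 the 6 erasers (Kdm1a, Kdm1b and Kdm5a to Kdm5d) summed to 32.6, 31.9 and 30.7 FPKM against 28.9, 27.7 and 24.7, separate between groups. The 7 H3K4 writers summed to 55.1, 50.4 and 48.3 FPKM against 49.5, 43.5 and 32.1, with overlap. The H3K4 ratio was 1.58 to 1.69 in CEBPβ and 1.30 to 1.71 in CEBPβ-A, lowest in CEBPβ-A replicate 3.

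For H3K36, Setd2 and Nsd1 together had 14.9 to 17.0 FPKM in CEBPβ and 9.69 to 15.4 in CEBPβ-A, and Kdm2a and Kdm2b 8.51 to 9.06 against 6.44 to 8.25, the latter separate. For H3K27 the ratio of Ezh1 and Ezh2 to Kdm6a and Kdm6b was 0.899 to 1.05 in CEBPβ and 1.01 to 1.22 in CEBPβ-A. For H3K9 the ratio of Ehmt1 and Ehmt2 to 5 demethylases was 1.07 to 1.24 and 1.15 to 1.31. Kdm7a, which acts on both H3K9 and H3K27, was left out of the sums of both marks. Its level lay above those of Kdm6a and of Kdm6b in every library, so the H3K27 ratio covers only part of the erasers. For acetylation, 10 acetyltransferases over 7 zinc deacetylases gave 2.02 to 2.34 and 2.11 to 2.20. These ratios overlapped between the groups.

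**Figure D3:**
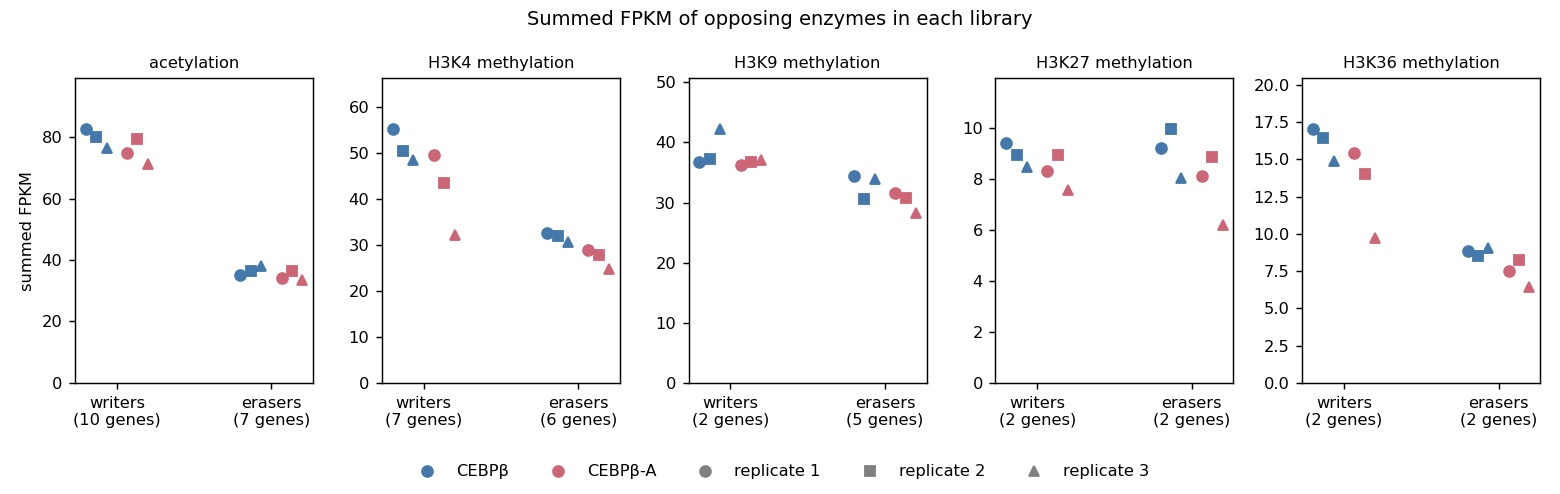
Summed FPKM (y axis, from 0) of writers and erasers of the same mark in each library, with colour giving the group and shape the replicate. Kdm7a, which acts on both H3K9 and H3K27, is left out of both eraser sums. The H3K4 and H3K36 erasers lie lower in all 3 CEBPβ-A libraries, and the writer sums of the 5 marks overlap between groups.

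The size of the difference went with transcript length. Across the 63 tested members, log2 fold change and log2 length of the longest coding transcript (GENCODE M21) had a Pearson r of −0.80 and a Spearman rho of −0.81, and across 9570 genes −0.48 and −0.55. This is a description across genes, which share the same 6 libraries. The tested members had a median length of 4653 bases, against 3029.5 over all genes. Methyl writers on lysine (6621 bases) and demethylases (6149) had the longest medians, and sirtuins (1891) and arginine methyl writers (2691) the shortest. All 24 members of 6000 bases or longer had a lower mean in CEBPβ-A, as had 1078 of 1209 genes of that length. The median log2 fold change was −0.24 for these members and −0.18 for those genes. The 19 members from 2000 to under 4000 bases had a median of 0.0039, beside −0.00039. Of the 13 members lower in every CEBPβ-A library, 10 had 6000 bases or more. That was 41.7% of members of that length, against 18.3% of all genes of that length. The others, Kdm1b, Ehmt1 and Hdac6, had 4000 to under 6000 bases (21.4% of such members, against 14.9% of such genes).

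**Figure D4:**
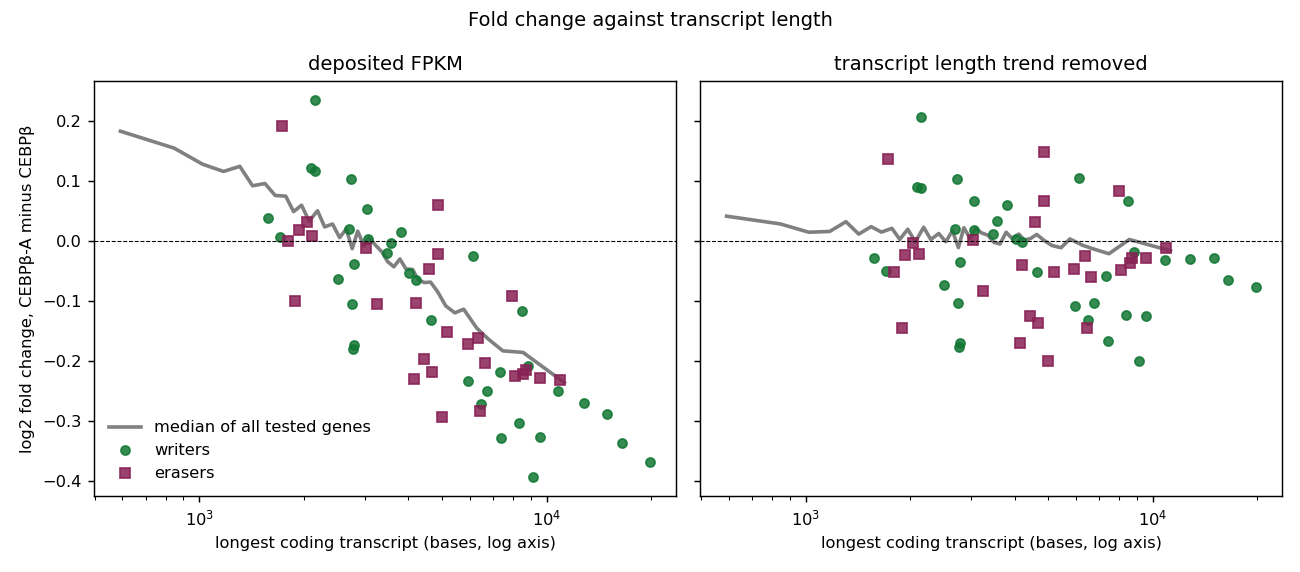
log2 fold change (CEBPβ-A minus CEBPβ, y axis) against the longest coding transcript (bases, log axis) for 36 writers and 27 erasers, with the running median of all tested genes in grey. On the left, the 24 members of 6000 bases or more lie below 0, and on the right, after the length trend was removed in each library, the median of the members is −0.031.

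The relation with length differed between libraries. Against the CEBPβ mean, r across members was −0.11, −0.60 and −0.83 in CEBPβ-A replicates 1, 2 and 3, and 0.38, 0.11 and −0.45 in CEBPβ replicates 1, 2 and 3. The median deviation of lysine methyl writers was −0.085, −0.12 and −0.35 in the 3 CEBPβ-A libraries, and that of demethylases −0.12, −0.078 and −0.30. CEBPβ-A replicate 3 was thus the lowest for both classes. With the length trend removed in each library, the median log2 fold change was −0.031 for writers and −0.036 for erasers, beside 0.0082 over all genes, and 44 of 63 members were negative against 47.3% of all genes. Members lower in every CEBPβ-A library then numbered 7 (11.1%, against 6.17% of all genes), and 1 was higher (Kmt5b, against 6.87%). The 7 were Kat6a, Kdm1b, Kdm5c, Hdac6, Setd2, Setd7 and Sirt6.

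Kdm1b was the one member with an unadjusted p under 0.05 after removal of the length trend, where 6.91% of all genes were (log2 fold change −0.20, SE 0.077, unadjusted p = 0.0348, limma adjusted p = 0.711). Kat6a had −0.20, Hdac6 −0.17, Kdm5c −0.14 and Ehmt1 −0.11. The long writers Kmt2d, Kmt2a, Nsd1 and Kmt2c had −0.077, −0.065, −0.030 and −0.028. Without CEBPβ-A replicate 3 and with no length correction, the medians were −0.071 for writers and −0.069 for erasers, and 49 of 63 members were negative against 49.6% of all genes. The r with length across members was then −0.53. RNA quality was not tested.

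**Figure D5:**
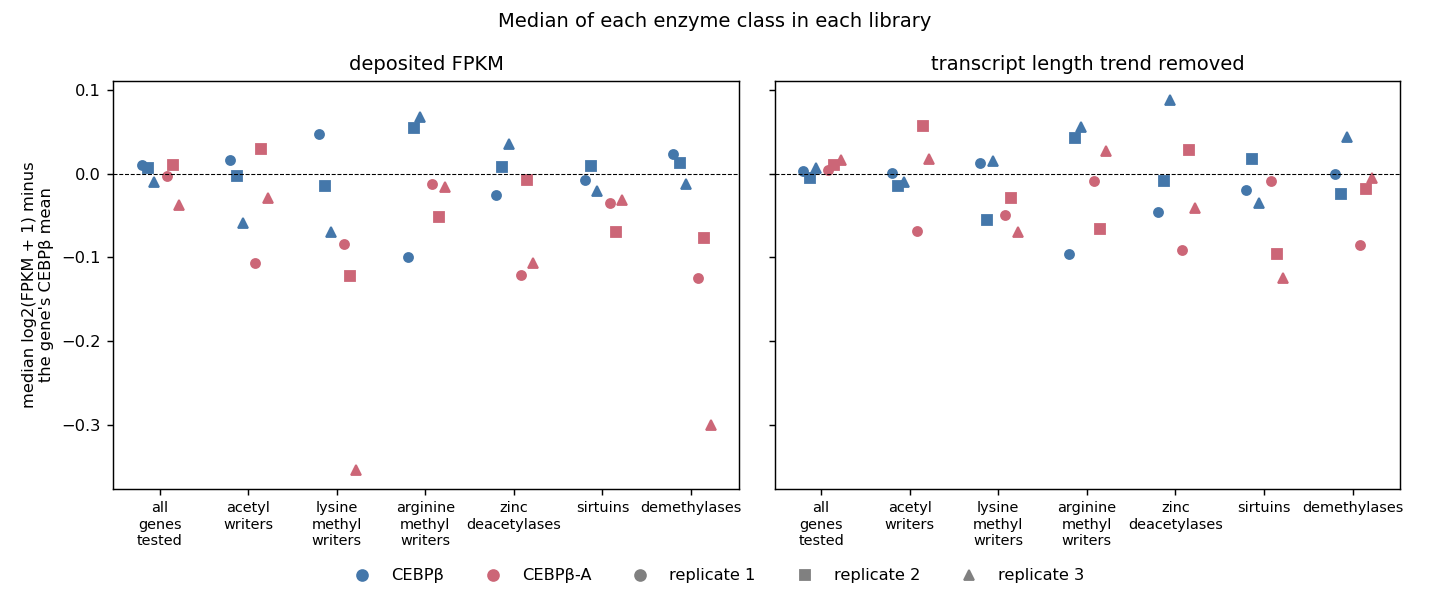
Median over each enzyme class of log2(FPKM + 1) minus the gene's CEBPβ mean (y axis) in each library, as deposited (left) and with the length trend removed (right). CEBPβ-A replicate 3 lies at −0.35 for lysine methyl writers and −0.30 for demethylases on the left, and at −0.070 and −0.0059 on the right.

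Partners of these enzymes were described from 6 lists. Of 120 tested partner genes 1 passed, where 0.0520% of all genes did. That gene was Tbl1xr1, an exchange factor of the NCoR and SMRT deacetylase complexes, which fell from 8.41, 6.91 and 6.96 FPKM in CEBPβ to 2.25, 2.19 and 3.08 in CEBPβ-A (log2 fold change −1.27, SE 0.13, limma adjusted p = 0.0368). Of 23 tested scaffolds of deacetylase complexes 13 were negative, with a median of −0.047. Gps2, a subunit of the same complexes, had 19.3, 19.7 and 20.2 FPKM against 22.0, 21.6 and 25.3, with all CEBPβ-A libraries above CEBPβ (0.20, SE 0.083, limma adjusted p = 0.588). Mier3 had a log2 fold change of −0.24. Of 8 PRC2 partners 4 were negative, with a median of 0.0086. Jarid2, which guides PRC2 to its targets, was separate (1.40, 1.13 and 1.43 FPKM against 1.04, 0.976 and 0.961, −0.22), and Rbbp7 and Phf1 had 0.10 and 0.10. Of 11 partners of the H3K4 writers 7 were negative, with a median of −0.086, and none was separate (against 16.8% of all genes). Their core subunits Ash2l and Dpy30 had −0.19 and 0.17, and Pagr1a had 0.264, 11.2 and 0.667 FPKM in CEBPβ-A, a mean that rests on replicate 2.

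Among 27 subunits of acetyltransferase complexes 16 were negative, with a median of −0.026, 4 lower (14.8%, against 8.86% of all genes) and 2 higher (7.41%, against 7.89%) in every CEBPβ-A library. Brpf3, a scaffold of MYST-family complexes, had 1.90, 2.24 and 2.64 FPKM in CEBPβ and 1.48, 1.38 and 1.05 in CEBPβ-A (−0.50, SE 0.12, unadjusted p = 0.00368, limma adjusted p = 0.588). Trrap had −0.34 and Brd1 −0.19. Of 27 further histone enzymes 18 were negative, with a median of −0.057, and Taf1, the demethylase Phf8 and the H3K36 methyltransferase Ash1l had −0.38, −0.21 and −0.34. Of 24 readers of acetyl and methyl marks 16 were negative, with a median of −0.035, 5 lower (20.8%, against 8.86%) and 0 higher (against 7.89%) in every CEBPβ-A library. The HP1 gene Cbx5 was separate (3.41, 3.35 and 3.36 FPKM against 2.88, 2.94 and 1.77), as was Trim24 (−0.24), and Cbx1 overlapped (−0.35). With the length trend removed, the 6 list medians lay between −0.022 and 0.046.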

How the data were processed

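Total RNA of 6 libraries was sequenced on Illumina instruments after a stranded KAPA preparation, per the labels' protocols. The authors deposited FPKM values per gene, per the file headers, and the submitters' processing notes name GRCm38. Aligner, quantifier, annotation and the rule for listing genes are not stated. FPKM keep no read counts, so no counting interval can be given.

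Genes with a mean of at least 1 FPKM were tested (9617 genes, 63 of 69 members). The log2(FPKM + 1) values, which understate the change of low genes, were fitted with limma 3.58.1 in R 4.3.3 with an intensity trend, two-sided, with Benjamini-Hochberg adjustment over all genes tested and a threshold of 0.05. The fit was tested on simulated data with independent noise for each gene. That setting lacks the length trend and the outlying library of these data. Lists are described by counts and medians beside all genes. The rule for single accounts took the 3 smallest p and the highest level in each class and 20 members set by name. With overlaps these were 33 named members. In each partner list it took the 3 smallest p. Other members are given within their class, and some, such as Kmt2d, Setd7 and Kdm2a, also with the FPKM of each library. Members and lists were chosen with earlier results of these data known. Alternatives changed the pseudocount, filter, scaling, prior, replicate block and libraries, and 1 removed a loess trend (span 0.75) on transcript length in each library. Exons of 29 members overlap another gene in GENCODE M21. One gene of these name families is not reported here.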

Additional observations from a re-analysis of the deposited data

How the results depend on the processing

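No member passed the adjusted threshold in any of 18 alternatives, of which 1 (the length trend removed without CEBPβ-A replicate 3) was chosen after seeing the data. The lowest adjusted limma p of a named member was 0.372, with the replicate block. Members at an unadjusted p under 0.05 (6 as reported, against 8.18% of all genes) numbered 2 at a mean of at least 5 FPKM, where 38 members were tested (against 8.54%), 3 after quantile normalization (against 8.09%), 1 with the length trend removed (against 6.91%) and 0 when CEBPβ-A replicate 3 was also left out (against 4.54%). Leaving out 1 library gave 0 to 15, with 0 without CEBPβ replicate 1 (against 4.75% of all genes), 3 without CEBPβ replicate 2 (5.75%), 15 without CEBPβ-A replicate 1 (12.2%) and 1 without CEBPβ-A replicate 3 (5.34%). Members with separate groups (14, 22.2%, against 16.8% of all genes) numbered 9 at a mean of at least 5 FPKM (23.7%, against 18.1%). With the length trend removed they numbered 8 (12.7%, against 13.0% of all genes). Separation of 3 libraries from 2 asks less of a gene, and with single libraries left out the count was 16 to 30. It was 26 without CEBPβ replicate 3 (41.3%, against 34.0% of all genes) and 30 without CEBPβ-A replicate 1 (47.6%, against 33.2%). The writers' median (−0.11) was −0.031 with the length trend removed and −0.035 when CEBPβ-A replicate 3 was also left out, and −0.14 to −0.066 with single libraries left out. The erasers' median (−0.15) was −0.036 and −0.034 in the same fits, and −0.18 to −0.069 with single libraries left out, −0.069 being without CEBPβ-A replicate 3. Neither median changed sign. The causes were not tested.

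With the replicate number as a block, 17 members had an unadjusted p under 0.05, against 13.4% of all genes. The numbers were not taken as a pairing: deviations of same-numbered libraries had correlations of 0.0993, 0.247 and 0.259, not all above 0.1, although each library correlated best with its own number.

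Of 33 named members, 9 changed sign in at least 1 alternative. With the length trend removed these were Ehmt2 (0.0028), Hdac1 (−0.0024), Kdm1a (0.0013) and Sirt2 (−0.021), and with CEBPβ-A replicate 3 also left out Crebbp (0.0066), Hdac1 (−0.0039), Kdm7a (0.018), Nsd1 (0.0017) and Sirt2 (−0.056). Kdm1a stood at 0.0034 with median-of-ratios scaling and 0.021 after quantile normalization. With single libraries left out the values ran from −0.093 to 0.015 for Ehmt2, −0.0032 to 0.054 for Hdac1, −0.036 to 0.13 for Kat2a, −0.042 to 0.0055 for Kdm1a, −0.029 to 0.077 for Prmt5 and −0.036 to 0.051 for Sirt2. Members outside the 33 were not counted, and some of these also changed sign with the length trend removed. Kmt2b (0.067), Kdm5d (0.083), Kmt5b (0.11), Hdac5 (0.066), Kdm4b (0.031), Kat7 (0.033) and Prmt7 (0.011) then stood above 0. Kat8 (−0.028), Setd6 (−0.050) and Hdac8 (−0.023) stood below 0.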
